A study of Mus musculus with 16 samples.

Results

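ATG-GGN100dCT, a construct with a repeat of 100 glycine codons in its name, was compared with ATG-GGC11, a construct with a short repeat of 11 GGC codons, by RNA sequencing of the mouse cerebral cortex. The comparison took 8 of the 16 libraries of the series, 4 for each construct, chosen by the construct code in the library titles. Every group had received its construct by adeno-associated virus (AAV), a carrier used to bring genes into tissue. The series addressed how polyG proteins, which are chains of glycine, change the transcriptome of the cortex. Its other 8 libraries, 4 each from TAG-GGC100 and ATG-GGC100, were used for direct comparisons with ATG-GGN100dCT and for the estimate of the spread between libraries. In a GGN codon the third base can be any of the bases, and each of these codons encodes glycine, so that the peptide can be kept while the GGC sequence is broken up. TAG is a stop codon, and stands in TAG-GGC100 where the other constructs have the start codon ATG. What dCT stands for, and the promoter, dose, route, interval, strain, age and sex, are not stated in the sources at hand. No uninjected group was analysed here, so that each difference is one between injected groups.

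Expanded GGC repeats that are translated into polyglycine are known from neuronal intranuclear inclusion disease, in which protein inclusions form in the nuclei of neurons and other cells. In the cortex, immediate early genes are switched on within minutes of synaptic activity, through the factors CREB and SRF, and encode transcription factors such as FOS and EGR1 that act on a second wave of effector genes. Microglia are the brain's resident macrophages. Astrocytes clear glutamate and buffer potassium, and in injured tissue they turn on a reactive set of genes with GFAP and vimentin. Interferon-stimulated genes are switched on by STAT and IRF factors that bind a shared DNA element, the ISRE.

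Each construct's own sequence had been counted beside the mouse genes. The ATG-GGN100dCT row held 20.5, 8.65, 25.3 and 35.0 CPM (counts scaled to library totals) in replicates 1 to 4 of its own group, and at most 0.129 CPM in any other library. The row named Control, taken as that of ATG-GGC11 because the other rows carry the codes of the other constructs, held 69.4, 50.2, 51.5 and 35.1 CPM in that group and at most 0.121 CPM in ATG-GGN100dCT. For both groups compared, the own row was the highest in each library, which met the labels. The TAG-GGC100 row was also seen in both, at 0.962 ± 0.483 CPM in ATG-GGC11 and 0.617 ± 0.466 CPM in ATG-GGN100dCT. It held 12.6 ± 1.95 CPM in its own group. The ATG-GGC100 libraries had 1.75 ± 0.564 CPM of their own row, which was at most 0.311 CPM in any other library, but as much of the Control row, 1.78 ± 0.643 CPM (mean ± SD, n = 4). The rows hold different sequences, so that levels of different rows do not measure the dose; within ATG-GGN100dCT, replicate 2 had the fewest construct reads. Library totals ran from 12838756 to 19131210 counts. The tissue label was met by the markers of cortical neurons: Rbfox3, the pan-neuronal antigen NeuN, had 52.2 ± 2.23 FPKM in ATG-GGN100dCT and 50.7 ± 0.227 FPKM in ATG-GGC11 (FPKM, reads normalized to gene length and library size; mean ± SD, n = 4 here and below), and Slc17a7, the vesicular glutamate transporter of cortical excitatory neurons, had 270.5 ± 79.2 FPKM in ATG-GGN100dCT and 201 ± 15.2 FPKM in ATG-GGC11. Of the libraries compared, replicate 3 of ATG-GGN100dCT stood apart. It was low for myelin genes: the median level of 17 of them, on the log2 scale relative to the ATG-GGC11 mean, was -0.12, -0.17, -0.97 and -0.019 in replicates 1 to 4 of ATG-GGN100dCT, and 0.21, -0.35, 0.003 and 0.10 in those of ATG-GGC11.

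Of 17737 genes tested with edgeR, 1181 (6.66%) had a Benjamini-Hochberg adjusted p below 0.05 and are referred to as called: 562 (3.17%) were higher and 619 (3.49%) lower in ATG-GGN100dCT than in ATG-GGC11. The median size of a called change was 0.498 on the log2 scale, and 208 of the higher and 51 of the lower genes changed at least 2-fold. The 4 and 4 libraries did not overlap for 920 of the 1181 called genes and for 2520 of the 17737 tested. Genes named below for the largest changes were chosen to have no overlap, so that its absence adds no support for them. All 21 genes set apart below as possible reads from liver are among the higher calls, a direction that follows from their choice. Without them 1160 calls were left, 541 of them higher. When these genes were left out of the fit, 1117 genes were called, 520 higher and 597 lower. With library totals as scaling in place of TMM, 820 of 1222 calls were higher, 67.1% instead of 47.6%. The count was 386 without ATG-GGN100dCT replicate 4, 553 without its replicate 3 and 1834 without its replicate 2, and 575 to 722 without any single ATG-GGC11 library. The lists of genes below were therefore read against the shares of all genes, 3.17% higher and 3.49% lower, and the median log2 fold change of all genes, 0.0055. Separate animals are not stated for the libraries; p-values then reflect only how far these samples spread, which may be technical.

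**Figure D1:**
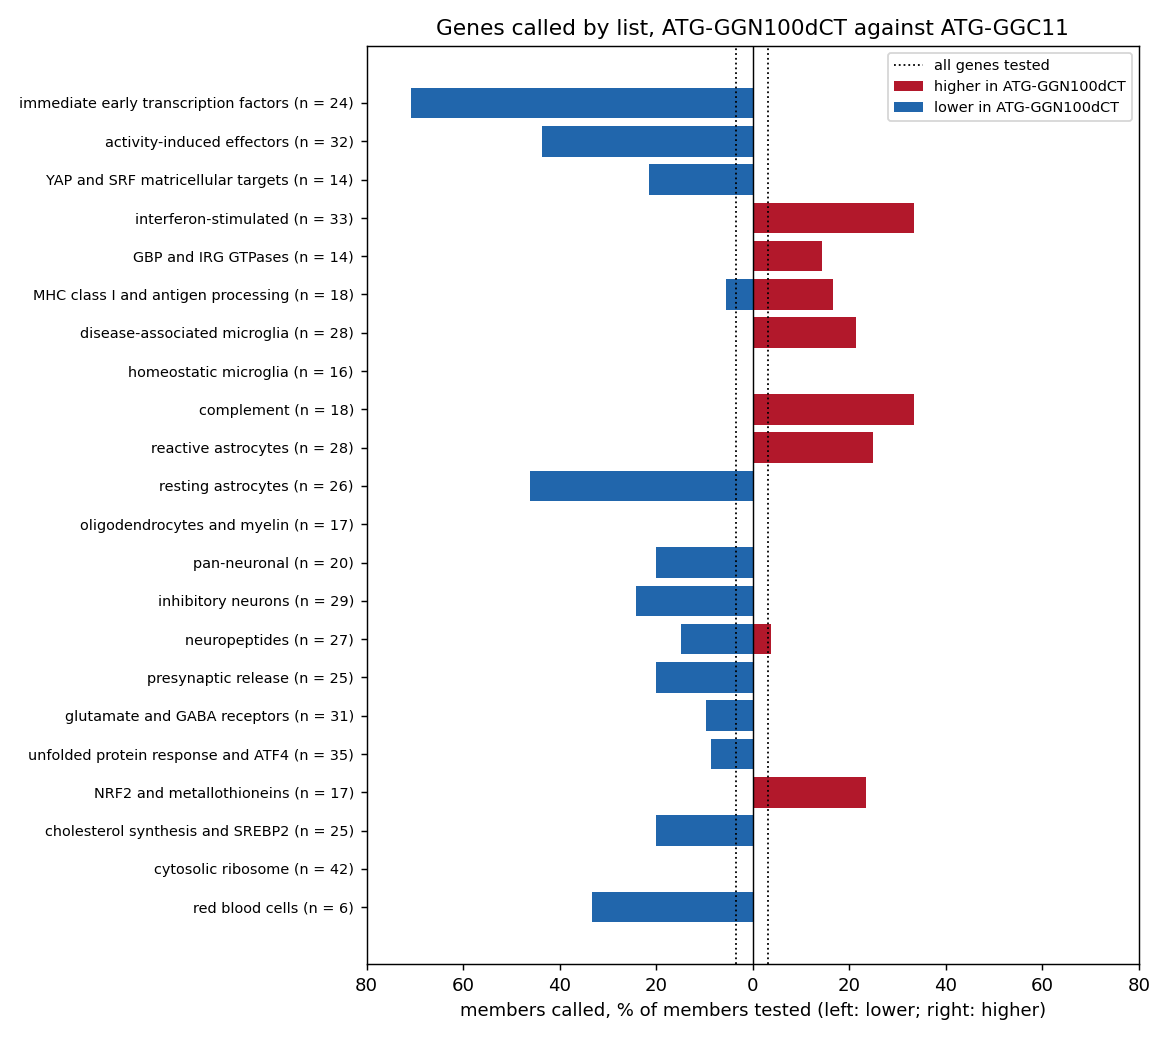
Share of each gene list that was called higher (red, to the right) or lower (blue, to the left) in ATG-GGN100dCT than in ATG-GGC11, in percent of the members tested (n beside each name), with dotted lines at the shares of all genes tested, 3.17% and 3.49%. The longest bar is that of the immediate early transcription factors (17 of 24 lower). Among the interferon-stimulated genes 11 of 33 were higher, and among the resting astrocyte genes 12 of 26 lower.

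Promoter sequences are shown for 6 genes of the groups described below, because they carry the elements by which CREB and the interferon-activated factors are known to bind. They come from RefSeq (GRCm38.p6), 120 bases each of the stretch before the transcription start, 5′ to 3′ in the direction of the gene. Capitals mark the full cAMP response element TGACGTCA in Btg2 (chr1:134079246-134079365, minus strand), Dusp1 (chr17:26508543-26508662, minus strand) and Pcsk1 (chr13:75089727-75089846, plus strand).
Btg2: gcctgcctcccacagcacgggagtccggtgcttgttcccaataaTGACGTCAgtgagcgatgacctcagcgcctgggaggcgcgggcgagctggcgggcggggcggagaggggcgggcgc
Dusp1: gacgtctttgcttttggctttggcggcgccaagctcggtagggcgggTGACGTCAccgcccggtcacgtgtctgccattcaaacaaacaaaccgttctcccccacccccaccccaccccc
Pcsk1: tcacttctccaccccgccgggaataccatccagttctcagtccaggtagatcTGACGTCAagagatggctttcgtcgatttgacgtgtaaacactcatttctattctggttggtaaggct
In the interferon-stimulated genes Ifit3 (chr19:34583339-34583458, plus strand), Cxcl10 (chr5:92349020-92349139, minus strand) and Irgm1 (chr11:48871421-48871540, minus strand), capitals mark the ISRE core, TTTC and TTTC with 2 bases of any kind between them, or its reverse complement with GAAA; the pair of matches in Irgm1 overlaps.
Ifit3: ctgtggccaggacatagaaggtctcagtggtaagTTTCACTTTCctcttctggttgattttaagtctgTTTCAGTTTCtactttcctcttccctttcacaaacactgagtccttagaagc
Cxcl10: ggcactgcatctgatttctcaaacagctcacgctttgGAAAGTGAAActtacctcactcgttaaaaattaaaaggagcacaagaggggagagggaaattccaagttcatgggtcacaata
Irgm1: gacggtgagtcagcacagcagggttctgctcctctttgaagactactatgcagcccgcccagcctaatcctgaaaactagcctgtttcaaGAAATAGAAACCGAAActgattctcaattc
Both strands of the 250 bases before the start were searched. The ISRE core was found in 10 of the 23 interferon-stimulated genes tested that had a promoter in the table (43.478%), in 9 of 10 genes of the GBP and IRG GTPases (90%), and in 309 of the 12503 promoters of all genes tested (2.471%). The full cAMP response element was found in 1 of 20 immediate early transcription factors, in 5 of 23 activity-induced effectors (21.739%) and in 2.591% of all genes tested. The CArG element of SRF was found in 0 of 20 and 2 of 23 of these, and in 1.168% of all genes tested. The element of AP-1, the factor that holds FOS, was found in 0 of 20 and 0 of 23. It was found in 6 of 23 interferon-stimulated genes and in 4.351% of all genes tested. The ISRE core was also in 2 of 20 immediate early transcription factors and 2 of 23 activity-induced effectors. Such a match describes letters in a window and not a bound site.

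Genes that neurons switch on with activity fell together, and of the 52 lists the immediate early transcription factors had the largest share of members that fell. Of 24 immediate early transcription factors, 17 fell and none rose, with a median log2 fold change of -1.41; 3.49% of all genes fell. By library, the median of the list stood at -1.05, -0.98, -1.33 and -1.71 in ATG-GGN100dCT replicates 1 to 4 and at 0.05, 0.12, 0.029 and -0.24 in ATG-GGC11, on the log2 scale relative to the ATG-GGC11 mean, so that the groups did not overlap. The count was 10 without ATG-GGN100dCT replicate 4 and 11 without ATG-GGN100dCT replicate 3 or ATG-GGC11 replicate 3. In bulk tissue, fewer cells that express a gene and less RNA per cell cannot be told apart.

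Fos (ENSMUSG00000021250, chromosome 12, 85520664 to 85524047 on the plus strand in the deposited table, whose genome build it does not name), a subunit of the AP-1 factor, had 7.07, 7.89, 3 and 3.61 FPKM in ATG-GGN100dCT libraries, against 40.3, 41.1, 29.1 and 22.9 FPKM in ATG-GGC11 libraries. The highest ATG-GGN100dCT library was under the lowest ATG-GGC11 library (log2 fold change -2.67 ± 0.38, adjusted p = 0.0024). Fosl2, which encodes another AP-1 subunit, had 2.23, 3.2, 1.62 and 1.49 FPKM in ATG-GGN100dCT libraries, against 8.52, 9.69, 9.57 and 9.29 FPKM in ATG-GGC11 libraries (-2.16 ± 0.26, adjusted p = 0.00058). The 4 ATG-GGC11 libraries lay close together for this gene, and the ATG-GGN100dCT libraries were all far below them. Fosb and Junb fell as well, by 1.75 ± 0.28 (adjusted p = 0.00399) and 1.56 ± 0.27 (adjusted p = 0.0074), both as log2 fold changes. Jun, the partner of FOS, was not among the genes that fell: it had 14.4, 13.6, 25.1 and 16.3 FPKM in ATG-GGN100dCT libraries, against 20.9, 20.4, 17.2 and 14.7 FPKM in ATG-GGC11 libraries (adjusted p = 0.748), and the groups overlapped.

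The EGR zinc-finger factors and the NR4A orphan nuclear receptors showed the same direction. Egr2 had 2.12, 1.87, 0.37 and 0.57 FPKM in ATG-GGN100dCT libraries, against 11.5, 13.3, 8.75 and 6.72 FPKM in ATG-GGC11 libraries (-3.07 ± 0.57, adjusted p = 0.0105), and its replicates 3 and 4 of ATG-GGN100dCT were the lowest. Egr4 had 11.2, 12.4, 7.26 and 6.38 FPKM in ATG-GGN100dCT libraries, against 29.1, 33.8, 36.4 and 26.5 FPKM in ATG-GGC11 libraries (-1.80 ± 0.23, adjusted p = 0.000775). Nr4a3 had 3.94, 4.61, 1.93 and 2.21 FPKM in ATG-GGN100dCT libraries, against 14.8, 15.8, 12.8 and 13.3 FPKM in ATG-GGC11 libraries (-2.20 ± 0.30, adjusted p = 0.00189), with all ATG-GGN100dCT libraries below all ATG-GGC11 libraries. Nr4a1 fell by 1.77 ± 0.33 (adjusted p = 0.0107). Btg2, an antiproliferative immediate early gene with the cAMP response element shown above, had 3.89, 4.83, 3.79 and 3.6 FPKM in ATG-GGN100dCT libraries, against 16.1, 13.8, 10.4 and 7.07 FPKM in ATG-GGC11 libraries (-1.61 ± 0.20, adjusted p = 0.000307). All of these stayed called without any single library. Other members were lost when single libraries were left out. Egr1, the EGR factor most used as an activity marker, had 59.6, 61.5, 16.3 and 25.6 FPKM in ATG-GGN100dCT libraries, against 118, 134, 122 and 100.31 FPKM in ATG-GGC11 libraries (adjusted p = 0.0434), but did not pass without ATG-GGN100dCT replicates 3 or 4 or ATG-GGC11 replicates 1, 2, 3 or 4 (adjusted p up to 0.117). Nr4a2 did not pass without ATG-GGN100dCT replicates 1, 2, 3 or 4 or ATG-GGC11 replicates 1, 2 or 3 (adjusted p up to 0.123), and Npas4, a factor induced by calcium entry, did not pass without ATG-GGN100dCT replicate 4 (adjusted p up to 0.0641).

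Of 32 activity-induced effectors, 14 fell and none rose (median -0.46). This count was 5 without ATG-GGN100dCT replicate 4 and 9 without ATG-GGC11 replicate 3. Tiparp, an ADP-ribosyltransferase gene, had 4.43, 4.78, 4.71 and 5.05 FPKM in ATG-GGN100dCT libraries, against 10.4, 10.5, 8.45 and 7.15 FPKM in ATG-GGC11 libraries (-0.99 ± 0.15, adjusted p = 0.00144). Its 4 ATG-GGN100dCT values lay close together. Dusp1, a phosphatase that switches off MAP kinases, had 8.52, 7.92, 6.06 and 7.88 FPKM in ATG-GGN100dCT libraries, against 23.1, 20.7, 17.6 and 13.2 FPKM in ATG-GGC11 libraries (-1.35 ± 0.25, adjusted p = 0.00914). Pcsk1, the prohormone convertase that cuts neuropeptide precursors, had 6.61, 8.86, 6.32 and 5.18 FPKM in ATG-GGN100dCT libraries, against 15.3, 15.4, 14.5 and 12.2 FPKM in ATG-GGC11 libraries (-1.13 ± 0.20, adjusted p = 0.00638), with no overlap. Sik1, a kinase induced by cAMP, and the clock gene Per1 fell by 1.48 ± 0.28 (adjusted p = 0.00997) and 0.82 ± 0.15 (adjusted p = 0.00514). Arc, a postsynaptic regulator of AMPA receptors, had 56.4, 39, 20.7 and 32.1 FPKM in ATG-GGN100dCT libraries, against 165, 166, 161 and 120.24 FPKM in ATG-GGC11 libraries (-2.09 ± 0.47, adjusted p = 0.0229), but did not pass without ATG-GGN100dCT replicates 3 or 4 or ATG-GGC11 replicate 2 (adjusted p up to 0.075).

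Some effectors of the same list went apart from the rest in 1 library. Nptx2, a secreted pentraxin that gathers AMPA receptors on interneurons, had 21.5, 17.8, 102 and 20.8 FPKM in ATG-GGN100dCT libraries, against 18.6, 24.2, 27.9 and 22.4 FPKM in ATG-GGC11 libraries (adjusted p = 0.35). The value of replicate 3 was several times that of every other library in either group. Bdnf, the neurotrophin gene, had 6.1, 4.35, 13.8 and 5.84 FPKM in ATG-GGN100dCT libraries, against 8.22, 7.71, 7.4 and 6.99 FPKM in ATG-GGC11 libraries (adjusted p = 0.941), again with replicate 3 as the highest; Fos and Egr1 were lowest in that library. Without replicate 3, Bdnf was called lower (adjusted p = 0.0148). Homer1, a postsynaptic scaffold gene with an activity-induced short form, had 19.6, 21.9, 14.2 and 12.8 FPKM in ATG-GGN100dCT libraries, against 24.2, 29.3, 31.9 and 30.2 FPKM in ATG-GGC11 libraries and did not pass (adjusted p = 0.0575); it passed without ATG-GGN100dCT replicate 2 (adjusted p = 0.0322).

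Ccn1, a secreted matricellular protein gene under SRF and YAP, had 1.56, 1.62, 2.1 and 1.83 FPKM in ATG-GGN100dCT libraries, against 10.7, 9.22, 8.23 and 4.28 FPKM in ATG-GGC11 libraries. Its log2 fold change was -2.24 ± 0.24, adjusted p = 3.75e-05, and no ATG-GGN100dCT library reached the lowest ATG-GGC11 library. Ccn2, its close relative, had 7.63, 7.9, 11 and 8.49 FPKM in ATG-GGN100dCT libraries, against 10.4, 12.2, 13.3 and 8.25 FPKM in ATG-GGC11 libraries and did not pass (adjusted p = 0.2). Of 14 SRF and YAP targets in the list, 3 fell and none rose. That count was 1 without ATG-GGN100dCT replicates 3 or 4 or ATG-GGC11 replicate 2. It was 1 with the 8 libraries of the 2 groups fitted alone or by limma on log2(FPKM + 0.5) or log2(FPKM + 0.1).

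The same genes were set beside the other constructs with long repeats. Fos had 5.39 ± 2.45 FPKM in ATG-GGN100dCT, 9.24 ± 4.22 FPKM in ATG-GGC100, 12.6 ± 2.54 FPKM in TAG-GGC100 and 33.4 ± 8.83 FPKM in ATG-GGC11. Ccn1 had 1.78 ± 0.244, 1.85 ± 0.468, 2.24 ± 0.442 and 8.11 ± 2.75 FPKM in the same order. For both, ATG-GGC11 was the group that stood above the others. Compared directly with TAG-GGC100, 6 of the 24 immediate early transcription factors fell (median -0.64; 4.4% of all genes fell and 4.3% rose, 8.69% in all), Fosl2 among them (-1.33 ± 0.26, adjusted p = 0.0101). The count was 1 without TAG-GGC100 replicates 2 or 4, 2 without ATG-GGN100dCT replicates 3 or 4 and 3 without TAG-GGC100 replicate 3. It came to 2 with the 8 libraries of the 2 groups fitted alone and 10 by DESeq2. With library totals as scaling, 980 of 1492 calls against TAG-GGC100 were higher, in place of 762 of 1542. Compared with ATG-GGC100, edgeR called none of the 24 (median -0.40; 1.19% of all genes fell and 0.857% rose, 2.05% in all): 0 higher and 9 lower members had an unadjusted p below 0.05, DESeq2 called 0 higher and 1 lower, and limma on log2(FPKM + 0.5) 0 higher and 0 lower. Of the effectors, 5 fell against TAG-GGC100. This count was 1 without TAG-GGC100 replicate 4, 2 without ATG-GGN100dCT replicate 4 and 3 without ATG-GGN100dCT replicate 3 or TAG-GGC100 replicate 2. It was 3 with the 8 libraries of the 2 groups fitted alone or by limma on log2(FPKM + 0.5) or log2(FPKM + 0.1). Against ATG-GGC100 edgeR called none: 2 higher and 4 lower members had an unadjusted p below 0.05, DESeq2 called 0 higher and 1 lower, and limma on log2(FPKM + 0.5) 0 higher and 0 lower. Pcsk1, at 6.74 ± 1.54 FPKM in ATG-GGN100dCT and 14.2 ± 2.12 FPKM in TAG-GGC100, was lower in the direct comparison (-1.11 ± 0.20, adjusted p = 0.00666). The 3 comparisons share the ATG-GGN100dCT libraries. A gene called in one and not in another is not thereby shown to differ between the other groups.

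**Figure D2:**
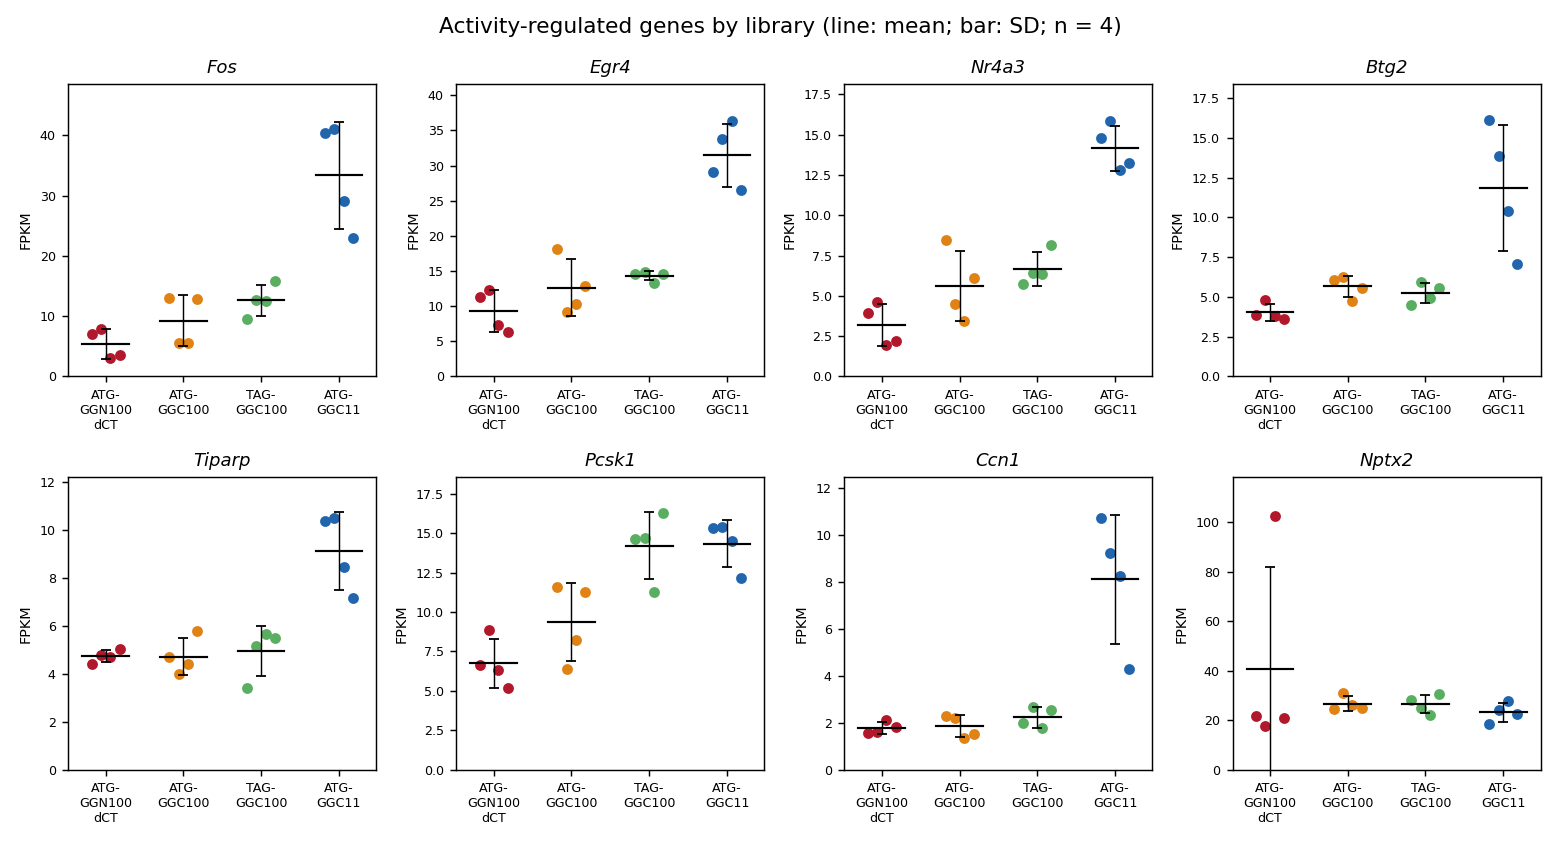
FPKM of 8 activity-regulated genes in each library of ATG-GGN100dCT, ATG-GGC100, TAG-GGC100 and ATG-GGC11 (points, replicates 1 to 4 from left; lines, mean; bars, SD, n = 4). For Fos, Egr4, Nr4a3, Btg2, Tiparp and Ccn1 the ATG-GGC11 libraries stand above the others, Pcsk1 is also high in TAG-GGC100, and Nptx2 is high in ATG-GGN100dCT replicate 3 at 102 FPKM.

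A part of the interferon-stimulated genes rose. Of 33 members, 11 rose and none fell, where 3.17% of all genes rose, and the median log2 fold change was 0.71. By library the median of the list stood at 1.00, 0.81, 0.081 and 0.58 in ATG-GGN100dCT replicates 1 to 4 and at 0.14, -0.12, 0.24 and -0.14 in ATG-GGC11, so that replicate 3 lay within the ATG-GGC11 range. That count was 3 without ATG-GGN100dCT replicate 4 or ATG-GGC11 replicate 2, 5 without ATG-GGN100dCT replicate 1 or ATG-GGC11 replicate 4 and 7 without ATG-GGC11 replicate 3. It came to 2 with the 8 libraries of the 2 groups fitted alone and 6 by limma on log2(FPKM + 0.5) or log2(FPKM + 0.1). Irf7, the transcription factor that amplifies the type I interferon response, had 1.56, 1.21, 1.04 and 1.05 FPKM in ATG-GGN100dCT libraries, against 0.3, 0.29, 0.74 and 0.43 FPKM in ATG-GGC11 libraries (1.42 ± 0.28, adjusted p = 0.00617), with no overlap. Cxcl10, a chemokine that draws T cells, was low throughout, with 0.65, 0.99, 0.16 and 0.22 FPKM in ATG-GGN100dCT libraries, against 0.03, 0.05, 0.08 and 0.03 FPKM in ATG-GGC11 libraries (3.27 ± 0.62, adjusted p = 0.00487). Its ATG-GGN100dCT replicates 1 and 2 were the highest. Both stayed called without any single library.

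Ifit3, which encodes an RNA-binding antiviral protein and has a pair of ISRE cores in the promoter shown above, had 10.8, 7.66, 3.76 and 7.9 FPKM in ATG-GGN100dCT libraries, against 3.7, 3.09, 3.87 and 3.35 FPKM in ATG-GGC11 libraries (1.06 ± 0.24, adjusted p = 0.0168). Replicate 3 lay among the ATG-GGC11 libraries, and Ifit3 did not pass without ATG-GGN100dCT replicate 4 or ATG-GGC11 replicate 2 (adjusted p up to 0.0559). Ifitm3, a membrane protein gene that blocks virus entry, had 15.6, 15.7, 12.2 and 17.8 FPKM in ATG-GGN100dCT libraries, against 7.88, 8.1, 12.6 and 6.89 FPKM in ATG-GGC11 libraries (0.73 ± 0.16, adjusted p = 0.013) and did not pass without ATG-GGN100dCT replicate 4 (adjusted p up to 0.0519). Isg15, a ubiquitin-like modifier, did not pass (adjusted p = 0.198), with 2.46 ± 1.47 FPKM in ATG-GGN100dCT and 1.35 ± 0.592 FPKM in ATG-GGC11. Among the GBP and IRG GTPases, which act on intracellular microbes, 2 of 14 rose, Igtp (0.62 ± 0.18, adjusted p = 0.0464) and Irgm1 (0.44 ± 0.12, adjusted p = 0.0303). The count was 0 without ATG-GGN100dCT replicates 1 or 4 or ATG-GGC11 replicates 2 or 4, 1 without ATG-GGN100dCT replicate 2 or ATG-GGC11 replicate 1 and 4 without ATG-GGN100dCT replicate 3. It was 0 with the 8 libraries of the 2 groups fitted alone and 1 by limma on log2(FPKM + 0.5) or log2(FPKM + 0.1). Igtp did not pass without ATG-GGN100dCT replicates 1, 2 or 4 or ATG-GGC11 replicates 1, 2, 3 or 4 (adjusted p up to 0.114), and Irgm1 did not pass without ATG-GGN100dCT replicates 1 or 4 or ATG-GGC11 replicates 2 or 4 (adjusted p up to 0.0937).

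A part of the genes of antigen presentation was called. Of 18 genes of MHC class I and its peptide supply, 3 rose and 1 fell (median 0.065). The gene that fell was Calr (-0.32, edgeR adjusted p = 0.0479), which is also counted in the list of the unfolded protein response. The higher count was 0 without ATG-GGN100dCT replicate 4 or ATG-GGC11 replicate 4 and 1 without ATG-GGC11 replicate 2. It came to 0 with the 8 libraries of the 2 groups fitted alone and 1 with a filter of 1 FPKM in 4 libraries or by limma on log2(FPKM + 0.5) or log2(FPKM + 0.1). The lower count was 0 to 2 without single libraries, and 0 with library totals or by limma on log2(FPKM + 0.5) or log2(FPKM + 0.1). Nlrc5, the transactivator of class I genes, and Tap1, a peptide transporter, were among the higher ones (1.49 ± 0.38, adjusted p = 0.0252, and 0.77 ± 0.21, adjusted p = 0.0346). Nlrc5 did not pass without ATG-GGN100dCT replicate 4 or ATG-GGC11 replicates 2 or 4 (adjusted p up to 0.0844), and Tap1 did not pass without ATG-GGN100dCT replicates 1, 2 or 4 or ATG-GGC11 replicates 1 or 4 (adjusted p up to 0.0921). H2-D1, a classical class I heavy chain, had 20.02, 19.1, 16.6 and 27.3 FPKM in ATG-GGN100dCT libraries, against 13.2, 12.4, 16.4 and 11.9 FPKM in ATG-GGC11 libraries (0.57 ± 0.13, adjusted p = 0.0191); it can share reads with other H2 genes and did not pass without ATG-GGN100dCT replicate 4 or ATG-GGC11 replicates 2 or 4 (adjusted p up to 0.0628). B2m, the light chain of class I molecules, had 112 ± 17.9 FPKM in ATG-GGN100dCT and 100.5 ± 9.48 FPKM in ATG-GGC11 and did not pass (adjusted p = 0.54). Of 7 MHC class II genes edgeR called none (median 0.19): 2 higher and 0 lower members had an unadjusted p below 0.05, DESeq2 called 1 higher and 0 lower, and limma on log2(FPKM + 0.5) 1 higher and 0 lower.

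The interferon and class I genes took other positions against the other groups. Against TAG-GGC100, 7 of the 33 interferon-stimulated genes rose and none fell (median 0.45). This count was 2 without ATG-GGN100dCT replicate 4 or TAG-GGC100 replicates 2 or 4, 3 without ATG-GGN100dCT replicate 1, 4 without TAG-GGC100 replicate 3 and 11 without ATG-GGN100dCT replicate 3. It was 1 with the 8 libraries of the 2 groups fitted alone. Irf7 was one of the 7 (1.49 ± 0.28, adjusted p = 0.00495). Against ATG-GGC100 none rose and 4 fell (median -0.44). That count was 1 without ATG-GGN100dCT replicate 3 or ATG-GGC100 replicates 3 or 4 and 2 without ATG-GGN100dCT replicates 1 or 4 or ATG-GGC100 replicates 1 or 2. It came to 0 with the 8 libraries of the 2 groups fitted alone or by limma on log2(FPKM + 0.5) or log2(FPKM + 0.1) and 2 with a filter of 1 FPKM in 4 libraries. Likewise 6 of 18 class I genes were lower than in ATG-GGC100. The count was 1 without ATG-GGC100 replicates 2 or 3, 2 without ATG-GGN100dCT replicate 3 and, at 3, without ATG-GGC100 replicate 4. It was 2 with the 8 libraries of the 2 groups fitted alone. B2m had 112 ± 17.9 FPKM in ATG-GGN100dCT and 186 ± 15.4 FPKM in ATG-GGC100 (-0.73 ± 0.10, adjusted p = 0.000315).

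Genes of activated microglia rose in part. Of 28 genes of disease-associated microglia, the state described around amyloid and dying cells, 6 rose and none fell (median 0.27). This count was 3 without ATG-GGN100dCT replicate 4 or ATG-GGC11 replicates 1, 2 or 4. It came to 2 with the 8 libraries of the 2 groups fitted alone. Clec7a, a receptor for fungal glucans and a marker of that state, had 0.64, 0.42, 0.38 and 1.4 FPKM in ATG-GGN100dCT libraries, against 0.07, 0.02, 0.18 and 0.03 FPKM in ATG-GGC11 libraries (3.12 ± 0.54, adjusted p = 0.00297), and replicate 4 was highest. Gpnmb, a glycoprotein of lipid-laden phagocytes, had 1.12, 0.77, 1.41 and 1.57 FPKM in ATG-GGN100dCT libraries, against 0.55, 0.31, 0.35 and 0.44 FPKM in ATG-GGC11 libraries (1.52 ± 0.25, adjusted p = 0.00186). Lilrb4a, an inhibitory receptor of myeloid cells, had 0.1, 0.15, 0.23 and 0.19 FPKM in ATG-GGN100dCT libraries, against 0.02, 0.04, 0.08 and 0.01 FPKM in ATG-GGC11 libraries (1.96 ± 0.42, adjusted p = 0.011). For each of these 3 genes the groups did not overlap, and the call held without any single library. Cst7, the protease inhibitor cystatin F, had 0.86, 0.33, 0.12 and 1.2 FPKM in ATG-GGN100dCT libraries, against 0.06, 0.05, 0.18 and 0.16 FPKM in ATG-GGC11 libraries (adjusted p = 0.0399), overlapped between the groups and did not pass without ATG-GGN100dCT replicates 1 or 4 or ATG-GGC11 replicates 1, 2, 3 or 4 (adjusted p up to 0.142).

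Of 16 homeostatic microglial genes edgeR called none (median -0.081): 1 higher and 1 lower members had an unadjusted p below 0.05, DESeq2 called 1 higher and 0 lower, and limma on log2(FPKM + 0.5) 0 higher and 0 lower. P2ry12, the ADP receptor of resting microglia, had 16.5, 15.3, 9.73 and 16.1 FPKM in ATG-GGN100dCT libraries, against 17.7, 15.5, 16.3 and 15.8 FPKM in ATG-GGC11 libraries (adjusted p = 0.286), with replicate 3 the lowest of the 8. Tmem119 had 8.29 ± 1.06 FPKM in ATG-GGN100dCT and 8.93 ± 0.453 FPKM in ATG-GGC11 (adjusted p = 0.405), the fractalkine receptor gene Cx3cr1 had 11.5 ± 2.34 FPKM in ATG-GGN100dCT and 11.3 ± 1.36 FPKM in ATG-GGC11 (adjusted p = 0.947), and Csf1r, the receptor on which microglia depend, had 13.2 ± 1.91 FPKM in ATG-GGN100dCT and 13.5 ± 1.82 FPKM in ATG-GGC11 (adjusted p = 0.685). The lipid sensor gene Trem2 had 2.46 ± 0.678 FPKM in ATG-GGN100dCT and 2.4 ± 0.41 FPKM in ATG-GGC11 (adjusted p = 0.983), and the lipid carrier gene Apoe had 639 ± 69 FPKM in ATG-GGN100dCT and 656 ± 94.8 FPKM in ATG-GGC11 (adjusted p = 0.612). Of 15 pan-myeloid genes 1 rose. That count was 0 without ATG-GGN100dCT replicate 4 or ATG-GGC11 replicates 1 or 2, 2 without ATG-GGN100dCT replicate 2 or ATG-GGC11 replicate 3 and 3 without ATG-GGN100dCT replicate 3. It was 0 with the 8 libraries of the 2 groups fitted alone or by limma on log2(FPKM + 0.5) and 2 with no filter or by DESeq2. Of 9 genes of border macrophages, the macrophages of meninges and vessels, none was called.

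Against ATG-GGC100, many microglial genes were lower. Of the disease-associated genes 11 of 28 were lower and none higher (median -0.55), of the homeostatic genes 8 of 16 (median -0.41) and of the pan-myeloid genes 9 of 15 (median -0.60). For the homeostatic genes the count was 4 without ATG-GGC100 replicate 3 and 5 without ATG-GGN100dCT replicate 1. It came to 5 with the 8 libraries of the 2 groups fitted alone. For the pan-myeloid genes the count was 5 without ATG-GGC100 replicate 3. Clec7a had 0.64, 0.42, 0.38 and 1.4 FPKM in ATG-GGN100dCT libraries, against 2.98, 2.51, 3.45 and 3.55 FPKM in ATG-GGC100 libraries (-2.15 ± 0.34, adjusted p = 0.00199). Trem2 had 2.46 ± 0.678 FPKM in ATG-GGN100dCT and 5.03 ± 0.654 FPKM in ATG-GGC100 (-1.03 ± 0.17, adjusted p = 0.00185). Lysosomal genes, which these cells express highly, were lower in 15 of 30 cases against ATG-GGC100. The count was 7 without ATG-GGC100 replicate 3 and 9 without ATG-GGN100dCT replicates 1 or 3. It was 7 with the 8 libraries of the 2 groups fitted alone. Against ATG-GGC11, 3 were higher. This count was 0 without ATG-GGN100dCT replicates 1 or 4 or ATG-GGC11 replicates 1, 2 or 4 and 1 without ATG-GGN100dCT replicate 3. It came to 0 with the 8 libraries of the 2 groups fitted alone and 1 with no filter. Against TAG-GGC100, 7 disease-associated genes rose. That count was 3 without ATG-GGN100dCT replicate 4 and 4 without TAG-GGC100 replicate 4. It was 3 with the 8 libraries of the 2 groups fitted alone. In that comparison Clec7a had a log2 fold change of 2.27 ± 0.48, adjusted p = 0.0102, and Gpnmb of 1.72 ± 0.25, adjusted p = 0.00105.

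Complement genes rose in 6 of 18 cases, with none lower (median 0.29). The count was 2 without ATG-GGN100dCT replicate 4 or ATG-GGC11 replicate 2. It came to 1 with the 8 libraries of the 2 groups fitted alone and 3 by limma on log2(FPKM + 0.5) or log2(FPKM + 0.1). C3, the component on which all complement routes meet, had 0.45, 0.54, 0.43 and 0.8 FPKM in ATG-GGN100dCT libraries, against 0.12, 0.02, 0.07 and 0.14 FPKM in ATG-GGC11 libraries (2.68 ± 0.46, adjusted p = 0.00289), with no overlap. C4b had 8.93, 7.98, 9.54 and 21 FPKM in ATG-GGN100dCT libraries, against 4.31, 3.82, 5.4 and 3.38 FPKM in ATG-GGC11 libraries (1.43 ± 0.31, adjusted p = 0.0187), with replicate 4 far above the other 3; it did not pass without ATG-GGC11 replicate 2 (adjusted p up to 0.056), and can share reads with its near copy C4a. C1ra and C1s1, the proteases of the C1 complex, rose by 0.98 ± 0.23 (adjusted p = 0.0184) and 1.27 ± 0.31 (adjusted p = 0.0204). C1ra did not pass without ATG-GGN100dCT replicates 1 or 4 or ATG-GGC11 replicate 3 (adjusted p up to 0.0705), and C1s1 did not pass without ATG-GGN100dCT replicate 4 or ATG-GGC11 replicates 2 or 3 (adjusted p up to 0.0895). C1qa, a subunit of the C1q recognition molecule made by microglia, had 52.5 ± 10.6 FPKM in ATG-GGN100dCT and 41.8 ± 7.02 FPKM in ATG-GGC11 and did not pass (adjusted p = 0.198). Hepatocytes also make C3 and C4, and transcripts of hepatocytes were present in these libraries as described below; their part in these values was not tested. Against ATG-GGC100, 6 complement genes were lower, C1qa among them (-0.96 ± 0.13, adjusted p = 0.000538).

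Astrocyte genes moved in both directions. Of 28 reactive astrocyte genes 7 rose and none fell (median 0.48). This count was 3 without ATG-GGN100dCT replicate 4 or ATG-GGC11 replicate 2 and 4 without ATG-GGN100dCT replicate 3 or ATG-GGC11 replicate 4. It was 2 with the 8 libraries of the 2 groups fitted alone and 3 by limma on log2(FPKM + 0.5) or log2(FPKM + 0.1). Serpina3n (ENSMUSG00000021091, chromosome 12, 104372988 to 104380588 on the plus strand), a protease inhibitor that marks reactive astrocytes, had 13.9, 11.6, 20.4 and 27.1 FPKM in ATG-GGN100dCT libraries, against 6.41, 4.51, 4.97 and 5.17 FPKM in ATG-GGC11 libraries (1.75 ± 0.29, adjusted p = 0.00502), with replicates 3 and 4 highest. Vim, the intermediate filament vimentin, had 7.14, 6.56, 8.17 and 11.2 FPKM in ATG-GGN100dCT libraries, against 4.03, 4.69, 5.96 and 4.86 FPKM in ATG-GGC11 libraries (0.71 ± 0.14, adjusted p = 0.00936). Both groups were apart for both genes, and both held without any single library. Gfap, the astrocytic filament gene, had 79.3, 46.6, 122 and 139.88 FPKM in ATG-GGN100dCT libraries, against 52.8, 41.2, 46.6 and 30.5 FPKM in ATG-GGC11 libraries (1.13 ± 0.28, adjusted p = 0.0325); replicate 2 lay within the ATG-GGC11 range, and Gfap did not pass without ATG-GGN100dCT replicates 3 or 4 or ATG-GGC11 replicates 2, 3 or 4 (adjusted p up to 0.0962). Against ATG-GGC100, 1 of the 28 was lower and none was higher (median -0.39). That count was 0 without ATG-GGN100dCT replicates 1 or 3 or ATG-GGC100 replicates 1, 2 or 3 and 2 without ATG-GGN100dCT replicate 4. It came to 2 by limma on log2(FPKM + 0.5), 4 with no filter and 5 by DESeq2.

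Genes of resting astrocytes fell in 12 of 26 cases and rose in none (median -0.23); without any single library the count was 9 to 13. By library, the median of the list was -0.26, -0.21, -0.35 and -0.17 in ATG-GGN100dCT and 0.047, -0.064, 0.076 and -0.075 in ATG-GGC11, which is small beside the change of the immediate early genes but without overlap. Ppp1r3c (ENSMUSG00000067279, chromosome 19, 36709131 to 36714053 on the minus strand), the subunit that directs protein phosphatase 1 to glycogen, which the brain stores in astrocytes, had 15.2, 13.4, 14 and 13.8 FPKM in ATG-GGN100dCT libraries, against 25.2, 26.6, 27.3 and 24 FPKM in ATG-GGC11 libraries (-0.91 ± 0.10, adjusted p = 1.55e-05). S1pr1, a sphingosine phosphate receptor, had 43.9, 40.5, 33.7 and 41.9 FPKM in ATG-GGN100dCT libraries, against 55.2, 56.1, 65.1 and 54.9 FPKM in ATG-GGC11 libraries (-0.58 ± 0.078, adjusted p = 0.000268). Gja1, the gap junction protein connexin 43, had 16.2, 16.8, 16.6 and 18.3 FPKM in ATG-GGN100dCT libraries, against 20.8, 20.2, 22.9 and 20.2 FPKM in ATG-GGC11 libraries (-0.35 ± 0.059, adjusted p = 0.00196). For each of these 3 genes the highest ATG-GGN100dCT library was below the lowest ATG-GGC11 library.

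Further members fell by less. Gpr37l1, a receptor of astrocytes, fell by 0.40 ± 0.072 (log2; adjusted p = 0.00331), Mlc1, a membrane protein of astrocytic end-feet, by 0.32 ± 0.06 (adjusted p = 0.00471), and Acsbg1, an acyl-CoA synthetase, by 0.29 ± 0.056 (adjusted p = 0.00529). The glutamate transporter gene Slc1a3 fell by 0.32 ± 0.067 (adjusted p = 0.00943), the potassium channel gene Kcnj10 by 0.51 ± 0.11 (adjusted p = 0.0141) and Slc7a10, a carrier of small neutral amino acids, by 0.39 ± 0.086 (adjusted p = 0.0126). Markers commonly used to count astrocytes did not all move. Aldh1l1 had 14.2 ± 1.92 FPKM in ATG-GGN100dCT and 13.6 ± 0.413 FPKM in ATG-GGC11 (adjusted p = 0.903) and the main glutamate transporter gene Slc1a2 had 225 ± 16.5 FPKM in ATG-GGN100dCT and 246 ± 17.9 FPKM in ATG-GGC11 (adjusted p = 0.161). The water channel gene Aqp4 passed (adjusted p = 0.0463), but not without ATG-GGN100dCT replicates 1, 2, 3 or 4 or ATG-GGC11 replicates 1, 2 or 3 (adjusted p up to 0.107). Gja1 was also lower than in TAG-GGC100 (-0.24 ± 0.059, adjusted p = 0.0177), not called without TAG-GGC100 replicate 2 (adjusted p up to 0.0508), and than in ATG-GGC100 (-0.37 ± 0.059, adjusted p = 0.00173), at 17 ± 0.903 FPKM in ATG-GGN100dCT, 21.9 ± 1.4 FPKM in ATG-GGC100 and 19.5 ± 0.544 FPKM in TAG-GGC100.

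**Figure D3:**
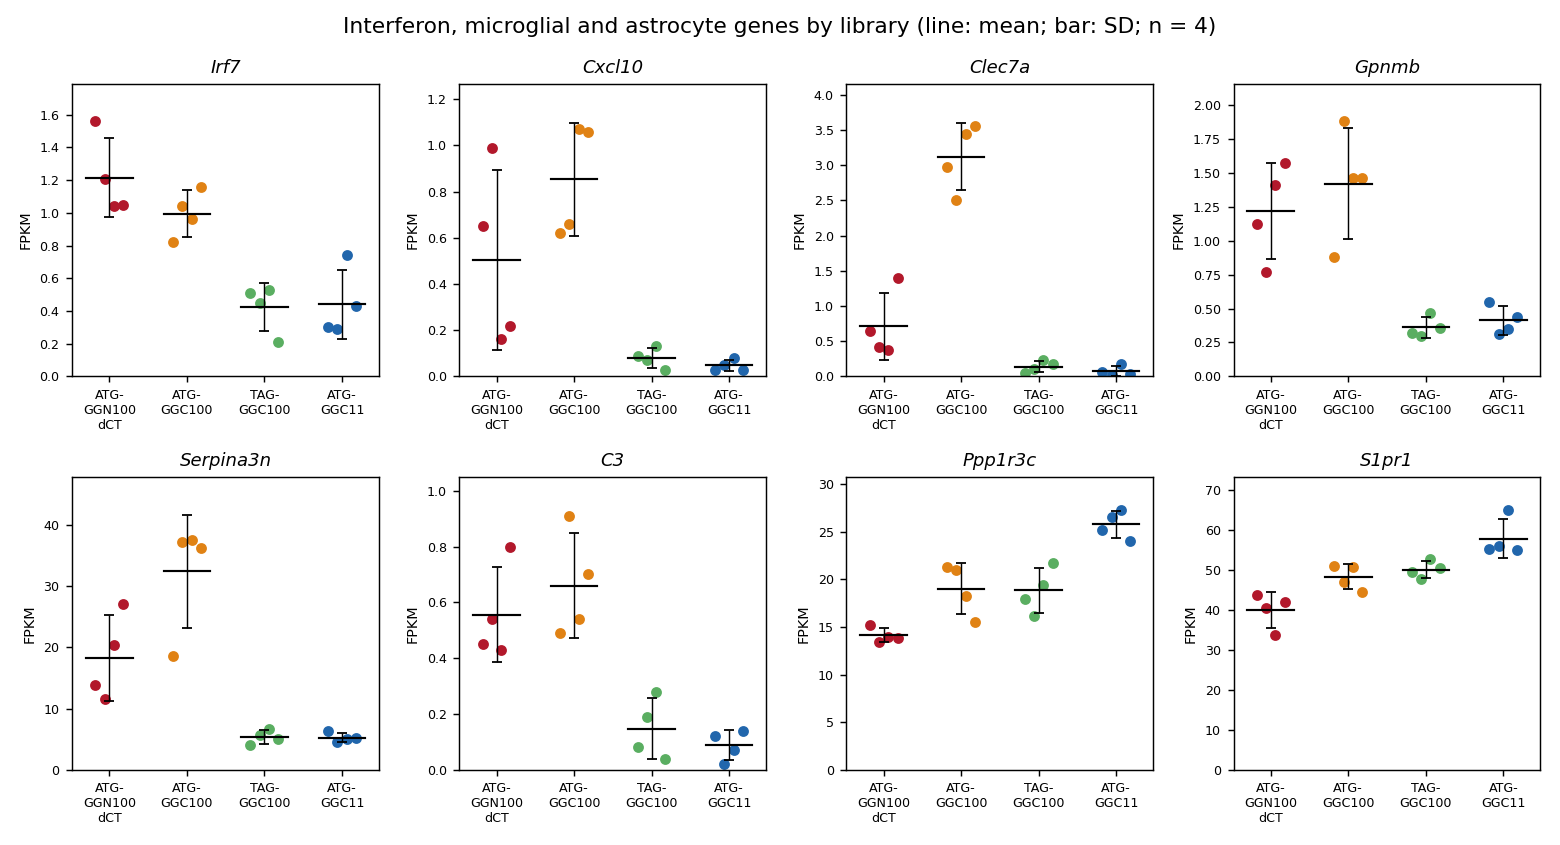
FPKM of interferon, microglial, complement and astrocyte genes in each library of ATG-GGN100dCT, ATG-GGC100, TAG-GGC100 and ATG-GGC11 (points, replicates 1 to 4 from left; lines, mean; bars, SD, n = 4). Clec7a averages 0.71 ± 0.474 FPKM in ATG-GGN100dCT, between ATG-GGC100 (3.12 ± 0.478) and ATG-GGC11 (0.075 ± 0.0733), while Ppp1r3c and S1pr1 are lowest in ATG-GGN100dCT.

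Neuronal genes showed changes in single families, while general markers did not pass. Of 20 pan-neuronal genes 4 fell and none rose (median -0.10). The count was 1 without ATG-GGN100dCT replicate 4. The 4 that fell were Nefl, Nefm, Nefh and Ina, the neurofilament subunits and alpha-internexin that form the filaments of axons. Nefl had 73.8, 92, 59.1 and 66 FPKM in ATG-GGN100dCT libraries, against 115, 116, 113 and 113 FPKM in ATG-GGC11 libraries (-0.69 ± 0.11, adjusted p = 0.00156). The ATG-GGC11 libraries agreed within a few FPKM and the ATG-GGN100dCT libraries were spread below them. Nefm had 34.2, 45, 25.3 and 25.8 FPKM in ATG-GGN100dCT libraries, against 53.7, 51.2, 55.8 and 53.6 FPKM in ATG-GGC11 libraries (-0.76 ± 0.17, adjusted p = 0.0175), Nefh fell by 0.44 ± 0.10 (adjusted p = 0.0187) and Ina by 0.31 ± 0.075 (adjusted p = 0.0192). These 3 were each lost with 1 library or more: Nefm without ATG-GGN100dCT replicates 3 or 4 (adjusted p up to 0.0529), Nefh without ATG-GGN100dCT replicate 4 or ATG-GGC11 replicate 1 (adjusted p up to 0.0673), and Ina without ATG-GGN100dCT replicate 4 (adjusted p up to 0.0612). Rbfox3 did not pass (adjusted p = 0.998), nor did the synaptic vesicle fusion gene Snap25, with 382 ± 13.8 FPKM in ATG-GGN100dCT and 388 ± 17.9 FPKM in ATG-GGC11 (adjusted p = 0.614). Against TAG-GGC100, Nefl had 72.7 ± 14.2 FPKM in ATG-GGN100dCT and 116 ± 11.4 FPKM in TAG-GGC100 (-0.71 ± 0.11, adjusted p = 0.00175), and Nefm had 32.6 ± 9.23 and 62.5 ± 9.83 FPKM (-0.98 ± 0.17, adjusted p = 0.00493). Against ATG-GGC100 edgeR called none of the 20 pan-neuronal genes (median 0.019), and 1 higher and 3 lower members had an unadjusted p below 0.05. There Nefl (adjusted p = 0.16), Nefm (0.48), Nefh (0.692) and Ina (0.896) did not pass. Nefl passed without ATG-GGN100dCT replicate 2 (adjusted p = 0.00851).

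Of 25 genes of presynaptic release 5 fell and none rose (median -0.067). This count was 3 without ATG-GGN100dCT replicates 3 or 4 or ATG-GGC11 replicates 2 or 4 and 9 without ATG-GGN100dCT replicate 2. It was 3 with the 8 libraries of the 2 groups fitted alone or by limma on log2(FPKM + 0.5) or log2(FPKM + 0.1) and 9 by DESeq2. Vamp1, a vesicle protein of fast-spiking and long-range neurons, had 10.6, 13.1, 9.9 and 9.34 FPKM in ATG-GGN100dCT libraries, against 19.3, 15.8, 18.6 and 15.6 FPKM in ATG-GGC11 libraries (-0.73 ± 0.10, adjusted p = 0.000371), with no overlap. Rims1, a scaffold of the release site, had 24.4, 27.6, 24.4 and 21.4 FPKM in ATG-GGN100dCT libraries, against 34.1, 36.2, 34.1 and 31.1 FPKM in ATG-GGC11 libraries (-0.51 ± 0.09, adjusted p = 0.00289). Syt2, the fast calcium sensor of parvalbumin neurons, had 7.21, 6.88, 4.5 and 7.4 FPKM in ATG-GGN100dCT libraries, against 11.3, 8.38, 10.03 and 9.38 FPKM in ATG-GGC11 libraries (-0.64 ± 0.14, adjusted p = 0.0181). Stx1a, a syntaxin of the fusion machinery, fell by 0.50 ± 0.13 (adjusted p = 0.0325), but not without ATG-GGN100dCT replicates 3 or 4 or ATG-GGC11 replicates 2, 3 or 4 (adjusted p up to 0.0993). Against TAG-GGC100, 6 of the 25 fell and none rose (3 to 8 lower and 0 to 3 higher without single libraries). Against ATG-GGC100 edgeR called none (0 to 1 lower and 0 to 2 higher without single libraries), with a median of 0.089. There Vamp1 (adjusted p = 0.507) and Rims1 (0.957) did not pass. Of 31 glutamate and GABA receptor genes 3 fell and none rose. Among them was Grm2, a presynaptic glutamate receptor (-0.54 ± 0.15, adjusted p = 0.0376), which did not pass without ATG-GGN100dCT replicates 1, 3 or 4 or ATG-GGC11 replicates 1, 2 or 3 (adjusted p up to 0.0918). That count was 6 without ATG-GGN100dCT replicate 2. It came to 5 by DESeq2.

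Of 29 inhibitory neuron genes 7 fell and none rose (median -0.12). The count was 1 without ATG-GGN100dCT replicate 4 or ATG-GGC11 replicate 2, 2 without ATG-GGN100dCT replicate 1, 3 without ATG-GGC11 replicates 3 or 4 and 4 without ATG-GGC11 replicate 1. It was 2 by limma on log2(FPKM + 0.5) or log2(FPKM + 0.1), 3 with the 8 libraries of the 2 groups fitted alone and 4 with library totals. Cort (ENSMUSG00000028971, chromosome 4, 149209491 to 149211220 on the minus strand), which encodes cortistatin, a relative of somatostatin, had 3.49, 3.87, 2.38 and 2.06 FPKM in ATG-GGN100dCT libraries, against 10.5, 8.72, 8.26 and 8.74 FPKM in ATG-GGC11 libraries (-1.65 ± 0.23, adjusted p = 0.000307), with no overlap. Sst, somatostatin itself, had 195, 194, 237 and 197 FPKM in ATG-GGN100dCT libraries, against 243, 281, 260.03 and 276 FPKM in ATG-GGC11 libraries (-0.41 ± 0.10, adjusted p = 0.0226) and did not pass without ATG-GGN100dCT replicates 1 or 4 or ATG-GGC11 replicates 2 or 4 (adjusted p up to 0.0783). Pvalb, the calcium buffer of fast-spiking interneurons, had 43.2, 44.1, 21.9 and 36 FPKM in ATG-GGN100dCT libraries, against 70.5, 52.6, 71.2 and 63.7 FPKM in ATG-GGC11 libraries (-0.87 ± 0.24, adjusted p = 0.0443) and did not pass without ATG-GGN100dCT replicates 1, 3 or 4 or ATG-GGC11 replicates 1, 2, 3 or 4 (adjusted p up to 0.105). The GABA-synthesizing enzymes did not pass: Gad1 had 50.5 ± 8.39 FPKM in ATG-GGN100dCT and 54 ± 4.22 FPKM in ATG-GGC11 (adjusted p = 0.578) and Gad2 had 41.5 ± 2.48 FPKM in ATG-GGN100dCT and 32.9 ± 6.26 FPKM in ATG-GGC11 (adjusted p = 0.32). Cort was also lower than in TAG-GGC100 (-1.53 ± 0.23, adjusted p = 0.00105), with 2.95 ± 0.867 FPKM in ATG-GGN100dCT and 8.36 ± 1.99 FPKM in TAG-GGC100, and lower than in ATG-GGC100 (-1.04 ± 0.23, adjusted p = 0.023), but not called without ATG-GGN100dCT replicates 3 or 4 or ATG-GGC100 replicates 1 or 3 (adjusted p up to 0.102).

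Among 27 neuropeptide genes and their processing enzymes, 1 rose and 4 fell: Gal rose, and Cort, Sst, Cartpt and Pcsk1 fell. The higher count was 3 without ATG-GGN100dCT replicate 2. It came to 0 with a filter of 1 FPKM in 4 libraries or with the 8 libraries of the 2 groups fitted alone or by limma on log2(FPKM + 0.5) or log2(FPKM + 0.1) and 2 by DESeq2. Gal, the precursor of galanin, had 0.69, 0.58, 2.5 and 2.03 FPKM in ATG-GGN100dCT libraries, against 0.16, 0.2, 0.07 and 0.3 FPKM in ATG-GGC11 libraries (2.94 ± 0.61, adjusted p = 0.00912), with replicates 3 and 4 highest. Cartpt, the precursor of the CART peptides, had 2, 4.16, 1.54 and 1.47 FPKM in ATG-GGN100dCT libraries, against 3.55, 6.79, 5.34 and 9.09 FPKM in ATG-GGC11 libraries (-1.47 ± 0.31, adjusted p = 0.0133); the values of the groups overlapped, since replicate 2 of ATG-GGN100dCT was above replicate 1 of ATG-GGC11. Of 14 excitatory neuron genes 1 rose (0 to 2 without single libraries) and 1, the kinase gene Camk2a, fell (-0.37 ± 0.089, adjusted p = 0.0195), but was not called without ATG-GGN100dCT replicate 4 or ATG-GGC11 replicate 2 (adjusted p up to 0.0805). Of 19 genes of cortical layers only Rorb, a nuclear receptor of layer 4, fell, with 3.56 ± 0.47 FPKM in ATG-GGN100dCT and 5.05 ± 0.515 FPKM in ATG-GGC11 (-0.55 ± 0.11, adjusted p = 0.00873); without ATG-GGN100dCT replicate 2 the counts were 2 lower and 1 higher. Cacna1g, a T-type calcium channel gene, was one of 2 voltage-gated channel genes of 30 that rose (0 to 2 without single libraries), beside 4 that fell. The lower count was 0 without ATG-GGN100dCT replicate 4, 1 without ATG-GGN100dCT replicate 3 or ATG-GGC11 replicate 1 and 2 without ATG-GGN100dCT replicate 1 or ATG-GGC11 replicates 2, 3 or 4. It was 1 by limma on log2(FPKM + 0.5) or log2(FPKM + 0.1) and 2 with library totals. Cacna1g had 14.2, 8.71, 19.7 and 16.5 FPKM in ATG-GGN100dCT libraries, against 7.93, 8.12, 8.65 and 8.22 FPKM in ATG-GGC11 libraries (0.80 ± 0.17, adjusted p = 0.0158); replicate 2 was only just above the ATG-GGC11 libraries, and Cacna1g did not pass without ATG-GGN100dCT replicate 4 (adjusted p up to 0.0548). Of 15 genes of striatal projection neurons edgeR called none (0 higher and 0 lower members had an unadjusted p below 0.05, DESeq2 called 0 higher and 0 lower, and limma on log2(FPKM + 0.5) 0 higher and 0 lower), but their median differed between libraries, at 0.71, 0.83, -0.60 and 0.042 in ATG-GGN100dCT and -0.30, -0.35, -0.16 and 0.78 in ATG-GGC11 on the log2 scale relative to the ATG-GGC11 mean; the part of tissue taken with the cortex in the neuronal results was not tested.

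**Figure D4:**
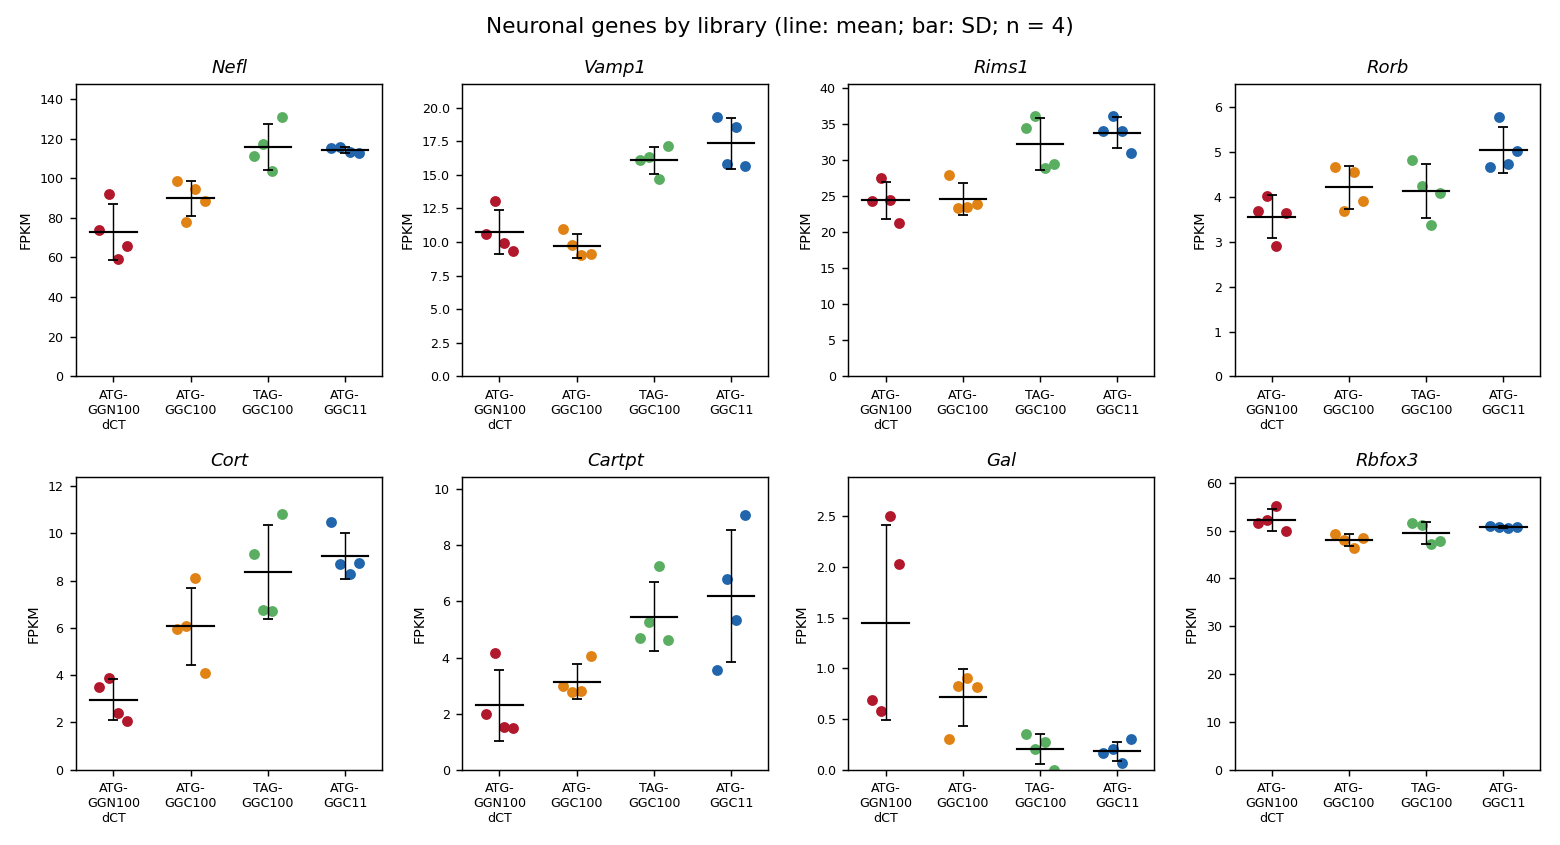
FPKM of 8 neuronal genes in each library of ATG-GGN100dCT, ATG-GGC100, TAG-GGC100 and ATG-GGC11 (points, replicates 1 to 4 from left; lines, mean; bars, SD, n = 4). Nefl, Vamp1, Rims1, Rorb and Cort lie lower in ATG-GGN100dCT than in ATG-GGC11 in every library, Gal lies higher, and Rbfox3 is at 52.2 ± 2.23 FPKM in ATG-GGN100dCT and 50.7 ± 0.227 FPKM in ATG-GGC11.

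Of 35 genes of the unfolded protein response and of ATF4 3 fell and none rose. This count was 0 without ATG-GGN100dCT replicates 3 or 4 or ATG-GGC11 replicates 1, 3 or 4 and 1 without ATG-GGC11 replicate 2. It came to 0 by limma on log2(FPKM + 0.5) or log2(FPKM + 0.1), 1 with library totals or with a filter of 1 FPKM in 4 libraries, 6 by DESeq2 and 7 with the 8 libraries of the 2 groups fitted alone. Atf4, the factor of the integrated stress response, was one of them (-0.48 ± 0.13, adjusted p = 0.0347), but not without ATG-GGN100dCT replicates 3 or 4 or ATG-GGC11 replicates 1, 2, 3 or 4 (adjusted p up to 0.101). Hspa5, the chaperone BiP of the endoplasmic reticulum, had 58.1, 57.2, 46.6 and 45.1 FPKM in ATG-GGN100dCT libraries, against 62.6, 67.3, 76.4 and 86.3 FPKM in ATG-GGC11 libraries and did not pass (adjusted p = 0.0888). Against TAG-GGC100, 16 of these genes were lower (median -0.29), Hspa5 among them with 51.7 ± 6.86 FPKM in ATG-GGN100dCT and 111 ± 33.9 FPKM in TAG-GGC100 (-1.14 ± 0.18, adjusted p = 0.00409), and 13 of 21 cytosolic heat shock genes were lower. For cytosolic heat shock the count was 5 without TAG-GGC100 replicate 4, 6 without TAG-GGC100 replicate 2, 7 without ATG-GGN100dCT replicate 4 and 8 without ATG-GGN100dCT replicate 3. It was 6 by limma on log2(FPKM + 0.1), 7 with the 8 libraries of the 2 groups fitted alone and 8 by limma on log2(FPKM + 0.5). In the comparison with ATG-GGC11, 2 cytosolic heat shock genes were lower (0 to 2 without single libraries). Of 25 genes of cholesterol synthesis 5 fell and none rose (median -0.19). That count was 1 without ATG-GGN100dCT replicate 4 or ATG-GGC11 replicate 4, 2 without ATG-GGN100dCT replicate 2 or ATG-GGC11 replicate 2 and 3 without ATG-GGC11 replicates 1 or 3. It came to 2 with library totals or by limma on log2(FPKM + 0.5) or log2(FPKM + 0.1) and 3 with the 8 libraries of the 2 groups fitted alone. Cyp51, the lanosterol demethylase, had 15.2, 12, 15.5 and 13.2 FPKM in ATG-GGN100dCT libraries, against 19, 21.3, 17.4 and 21.2 FPKM in ATG-GGC11 libraries (-0.54 ± 0.10, adjusted p = 0.00399), with no overlap. Vegfa, the vascular growth factor, fell by 0.53 ± 0.11 (adjusted p = 0.0116) and Ccnd2, cyclin D2, by 0.57 ± 0.11 (adjusted p = 0.00785), each without overlap.

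The remaining lists are given by their counts, followed by the range of the higher and of the lower count when any single library of the 8 was left out. Of all genes tested, 3.17% were higher and 3.49% lower. The proteasome and the nuclear-encoded oxidative phosphorylation genes were near or under these shares. The lists are sorted by direction only, and a list with 1 called member is not read as changed. Lists share called members. Per1 is counted among the activity-induced effectors, the circadian and the glucocorticoid genes. Nfil3 and Rorb are circadian members counted in other lists as well, and Errfi1 is such a glucocorticoid member. Cxcl10 is counted among the interferon-stimulated, the chemokine and the reactive astrocyte genes. Higher genes were found for NRF2 targets and metallothioneins (4 higher and 0 lower of 17; 0 to 5 and 0), endothelium (2 higher and 1 lower of 20; 0 to 4 and 0 to 2), pericytes and smooth muscle (2 higher and 0 lower of 12; 0 to 1 and 0), chemokines and cytokines (3 higher and 1 lower of 14; 1 to 3 and 0 to 2) and the proteasome (1 higher and 0 lower of 31; 0 to 2 and 0). Lower genes were found for the circadian clock (0 higher and 5 lower of 20; 0 and 2 to 8), the glucocorticoid response (1 higher and 6 lower of 20; 1 to 2 and 2 to 5), splicing factors (0 higher and 2 lower of 28; 0 to 1 and 0 to 2), ubiquitin and autophagy adaptors (0 higher and 2 lower of 22; 0 to 1 and 0 to 1), nuclear-encoded oxidative phosphorylation (0 higher and 1 lower of 43; 0 and 0 to 6), oligodendrocyte precursors (0 higher and 1 lower of 14; 0 and 0 to 4) and meningeal fibroblasts (0 higher and 1 lower of 15; 0 to 2 and 0 to 1). No member was called among 17 myelin genes, 42 ribosomal protein genes, 23 genes of nuclear transport and lamina, 13 mitochondrially encoded genes, 9 genes of ependyma and choroid plexus and 12 orthologs of human GGC-repeat disease genes. One or more members moved among p53 targets (0 higher and 1 lower of 19; 0 and 0 to 2), cell cycle genes (1 higher and 1 lower of 18; 0 to 1 and 1), replication-dependent histones (0 higher and 1 lower of 8; 0 and 0 to 2), the thermal and hypoxia response (1 higher and 1 lower of 14; 0 to 1 and 1 to 2) and lymphocyte and neutrophil markers (1 higher and 0 lower of 6; 0 to 2 and 0). The higher count of NRF2 targets and metallothioneins was 0 without ATG-GGN100dCT replicate 3 or ATG-GGC11 replicates 1 or 3, 1 without ATG-GGN100dCT replicate 4 or ATG-GGC11 replicate 2 and 2 without ATG-GGN100dCT replicate 1 or ATG-GGC11 replicate 4. It was 1 with the 8 libraries of the 2 groups fitted alone. The higher count of chemokines and cytokines was 1 without ATG-GGN100dCT replicates 1 or 4 or ATG-GGC11 replicates 2, 3 or 4. It came to 0 with the 8 libraries of the 2 groups fitted alone or by limma on log2(FPKM + 0.1) and 1 by limma on log2(FPKM + 0.5). The circadian count was 2 without ATG-GGN100dCT replicates 3 or 4 or ATG-GGC11 replicates 2 or 3, 3 without ATG-GGN100dCT replicate 1 or ATG-GGC11 replicate 1 and 8 without ATG-GGN100dCT replicate 2. It was 3 with library totals or with no filter or with a filter of 1 FPKM in 4 libraries or by limma on log2(FPKM + 0.5) or log2(FPKM + 0.1) and 8 by DESeq2. The glucocorticoid count was 2 without ATG-GGN100dCT replicate 4 or ATG-GGC11 replicates 2 or 3 and 3 without ATG-GGN100dCT replicates 1 or 3 or ATG-GGC11 replicates 1 or 4. It came to 3 with the 8 libraries of the 2 groups fitted alone or by limma on log2(FPKM + 0.5) or log2(FPKM + 0.1).

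Among all genes, the largest rises of those with at least 1 FPKM in ATG-GGN100dCT and with no overlap between the groups included several genes whose levels differed widely between the ATG-GGN100dCT libraries. Plin4, a coat protein of lipid droplets and the higher gene of the glucocorticoid list, had 3.26, 4.31, 5.26 and 3.81 FPKM in ATG-GGN100dCT libraries, against 0.49, 0.3, 0.34 and 0.71 FPKM in ATG-GGC11 libraries (3.17 ± 0.61, adjusted p = 0.0124). It was also high in some libraries of TAG-GGC100 (2.58 ± 1.69 FPKM) and ATG-GGC100 (1.23 ± 0.907 FPKM). Acaa1b, a peroxisomal thiolase, had 0.9, 0.6, 1.95 and 2.09 FPKM in ATG-GGN100dCT libraries, against 0.06, 0.27, 0.21 and 0.04 FPKM in ATG-GGC11 libraries (3.09 ± 0.47, adjusted p = 0.000872). Rgs13, a regulator of G-protein signalling, had 1.36, 0.59, 3.72 and 2.86 FPKM in ATG-GGN100dCT libraries, against 0.11, 0.54, 0.21 and 0.38 FPKM in ATG-GGC11 libraries (2.71 ± 0.57, adjusted p = 0.013). Ucma, a matrix protein known from cartilage, had 1.58, 0.89, 6.08 and 3.94 FPKM in ATG-GGN100dCT libraries, against 0.63, 0.59, 0.66 and 0.18 FPKM in ATG-GGC11 libraries (2.50 ± 0.53, adjusted p = 0.0124). F2rl2, a protease-activated receptor, had 2.5, 0.94, 4.11 and 2.48 FPKM in ATG-GGN100dCT libraries, against 0.37, 0.56, 0.44 and 0.78 FPKM in ATG-GGC11 libraries (2.19 ± 0.38, adjusted p = 0.00369), and Blnk, an adaptor of B-cell receptor signalling, had 3.19, 1.58, 5.09 and 4.86 FPKM in ATG-GGN100dCT libraries, against 0.78, 0.86, 0.88 and 0.83 FPKM in ATG-GGC11 libraries (2.09 ± 0.34, adjusted p = 0.00399). The predicted gene Gm35853 had 0.89, 0.52, 2.38 and 2.04 FPKM in ATG-GGN100dCT libraries, against 0.21, 0.27, 0.23 and 0.29 FPKM in ATG-GGC11 libraries (2.51 ± 0.41, adjusted p = 0.00203).

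For Acaa1b, Rgs13, Ucma, Blnk and Gm35853, as for Gal, replicates 3 and 4 were the highest and replicate 2 the lowest of the ATG-GGN100dCT libraries. Replicate 2 also had the fewest construct reads. The interferon-stimulated list had another order, with log2 medians of 1.00, 0.81, 0.081 and 0.58 in replicates 1 to 4. A relation of these 6 genes to construct reads was not tested. All 6 held without any single library, and against TAG-GGC100 they were higher as well, with Rgs13 at 3.80 ± 0.66, adjusted p = 0.00429 and Gm35853 at 1.99 ± 0.39, adjusted p = 0.00693; of these, Ucma did not pass without ATG-GGN100dCT replicates 3 or 4 or TAG-GGC100 replicates 2, 3 or 4 (adjusted p up to 0.0837). None of the 6 was called against ATG-GGC100 in the fit of all libraries, but without ATG-GGN100dCT replicate 2 Acaa1b, Gm35853 and Rgs13 were called higher (adjusted p = 0.0158, 0.00286 and 0.0257), Gm35853 also without its replicate 1. With all libraries, Rgs13 had 2.13 ± 1.42 FPKM in ATG-GGN100dCT and 0.752 ± 0.501 FPKM in ATG-GGC100 (adjusted p = 0.145). S100a8, a granule protein of neutrophils from the list of lymphocyte and neutrophil markers, had 1.22, 1.13, 1.12 and 0.8 FPKM in ATG-GGN100dCT libraries, against 0, 0, 0.59 and 0 FPKM in ATG-GGC11 libraries (adjusted p = 0.0422), and did not pass without ATG-GGN100dCT replicates 1, 3 or 4 or ATG-GGC11 replicates 1, 2 or 4 (adjusted p up to 0.118). Gm10257 had 1.18, 2.23, 1.74 and 0.85 FPKM in ATG-GGN100dCT libraries, against 0.45, 0.25, 0.57 and 0.19 FPKM in ATG-GGC11 libraries (adjusted p = 0.0293), and did not pass without ATG-GGN100dCT replicates 2 or 3 or ATG-GGC11 replicates 1, 2 or 4 (adjusted p up to 0.0864). Among the genes that fell, Gkn3, a gastrokine expressed in arterial endothelium of the brain, had 0.92, 0.84, 0.21 and 0.57 FPKM in ATG-GGN100dCT libraries, against 2.32, 1.71, 4.63 and 2.18 FPKM in ATG-GGC11 libraries (-2.13 ± 0.43, adjusted p = 0.00751).

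Transcripts of liver parenchymal cells, the hepatocytes, were found in the libraries of ATG-GGN100dCT. Genes with under 20 counts over the other 12 libraries together were set apart as possible reads from liver; 21 of them were tested, and 20 of these are in the hepatocyte list. Because they had to be near 0 in all other groups to be chosen, their direction follows from the choice, and no test of them is given. Summed over the 21 genes, the ATG-GGN100dCT libraries held 60.5, 66.6, 64.4 and 59.99 CPM, and the ATG-GGC11 libraries held 0.373, 0.523, 0.35 and 0.234 CPM. The 4 ATG-GGN100dCT libraries were thus nearly alike, also those that differed in immediate early or interferon genes.

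Alb, serum albumin (ENSMUSG00000029368, chromosome 5, 90608756 to 90624461 on the plus strand), had 358, 385, 398 and 321 counts in ATG-GGN100dCT libraries, against 1, 3, 0 and 0 counts in ATG-GGC11 libraries, a ratio of 379 after scaling to library totals. Serpina3k, a protease inhibitor, had 67, 97, 76 and 77 counts in ATG-GGN100dCT libraries and 0 in all ATG-GGC11 libraries, at least 110-fold higher with a floor of 3 counts over the group. Mup3, a major urinary protein, had 270 counts in ATG-GGN100dCT and 1 in ATG-GGC11, a ratio of 280 (95% counting interval, 49.9 to 11100). Cyp4a14, a fatty acid hydroxylase, had 239 and 1 counts in the same order, a ratio of 248 (44.1 to 9840). Mup7 had 158 and 0 counts, Gc, the vitamin D binding protein, 143 and 3, Ahsg, fetuin A, 142 and 0, and Serpina1b 124 and 1. Bhmt, which remethylates homocysteine, had 117 and 0 counts, and Serpina1e had 115 and 0. Members of the Mup, Serpina1 and Serpina3 families are near copies, among which reads can be split. Intervals and floors cover counting error only, with the 4 libraries of a group pooled. The choice of these genes kept their ATG-GGC11 counts near 0, so that the ratios and intervals are no test of a difference.

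Only genes with a large rise were examined just outside the limit of 20 counts over the other 12 libraries. The nearest of them were Mat1a (236 counts in ATG-GGN100dCT and 24 in the other 12) and Cyp2e1 (305 and 30). No test of them is given. Inside the limit, Hpd (69 and 14) was nearest, followed by Apob (85 and 11) and Pck1 (84 and 11).

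Of 97 hepatocyte genes in the table, 51 passed the filter on low counts. A gene near 0 in the other groups could pass it only through ATG-GGN100dCT, so that no count of called members, median or test is given for this list. Outside the genes set apart, Cyp2e1, a cytochrome P450, had 2.16, 2.25, 2.57 and 1.97 FPKM in ATG-GGN100dCT libraries, against 0.09, 0.05, 0.08 and 0.07 FPKM in ATG-GGC11 libraries. Mat1a, which makes S-adenosylmethionine in liver, had 1, 1.19, 1.27 and 0.84 FPKM in ATG-GGN100dCT libraries, against 0.02, 0.02, 0.12 and 0.02 FPKM in ATG-GGC11 libraries. Apoa1, the main protein of high-density lipoprotein, had 2.65, 3.39, 2.66 and 2.42 FPKM in ATG-GGN100dCT libraries, against 0.2, 0.38, 0.19 and 0.06 FPKM in ATG-GGC11 libraries (216 counts in ATG-GGN100dCT and 37 over the other 12 libraries). Apoa2 had 6.33, 4.64, 5.78 and 5.83 FPKM in ATG-GGN100dCT libraries, against 0.23, 0.78, 0.54 and 0.44 FPKM in ATG-GGC11 libraries (191 and 54 counts), and Hp, haptoglobin, had 1.74, 1.39, 1.97 and 1.43 FPKM in ATG-GGN100dCT libraries, against 0.23, 0.13, 0.18 and 0.19 FPKM in ATG-GGC11 libraries (166 and 59 counts). Summed over the 77 genes of the list in the table that were not set apart, the libraries held 551, 534, 432 and 611 CPM in ATG-GGN100dCT, and 559, 455, 549 and 543 CPM in ATG-GGC11, and the groups overlapped.

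**Figure D5:**
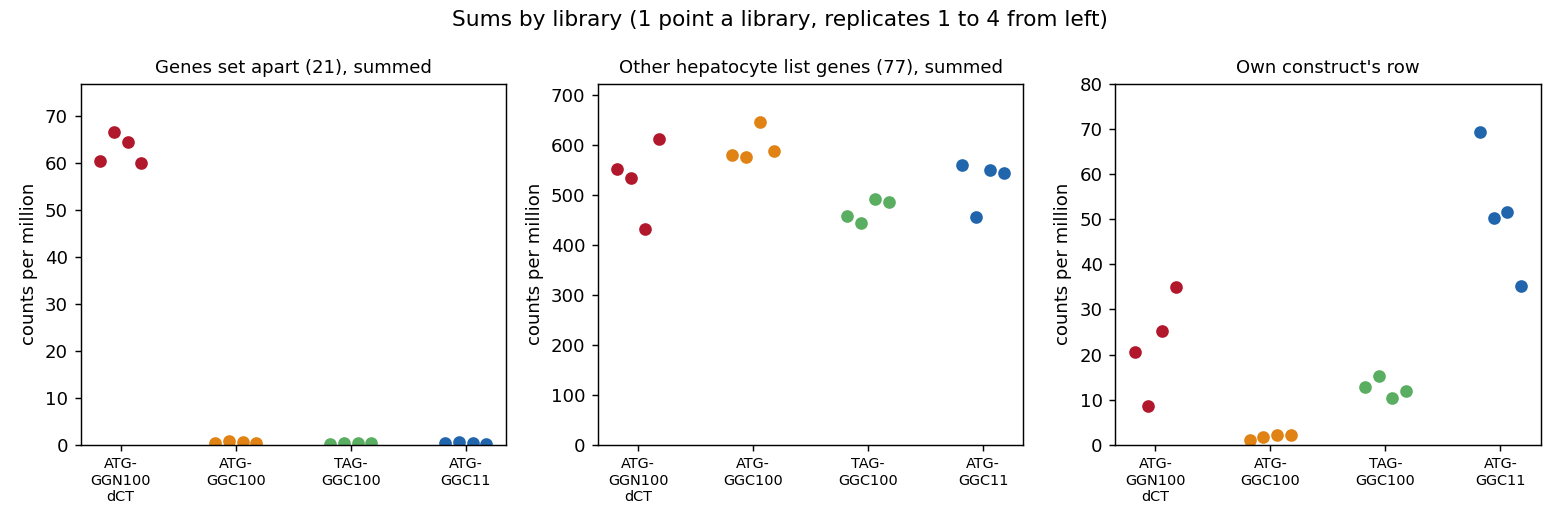
CPM in each library of ATG-GGN100dCT, ATG-GGC100, TAG-GGC100 and ATG-GGC11, for the 21 genes set apart (left), for the other 77 genes of the hepatocyte list (middle) and for the row of the library's own construct (right). The set-apart genes sum to 59.99 to 66.6 CPM in ATG-GGN100dCT and to at most 0.836 CPM elsewhere, which the choice of these genes fixes. The sum of the other hepatocyte genes overlaps between ATG-GGN100dCT and ATG-GGC11. Single genes in that sum, among them Cyp2e1, Mat1a, Apoa1, Apoa2 and Hp, do not overlap between these groups.

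Of 6 red blood cell genes tested, 2 fell and none rose (median -1.44). The count was 0 without ATG-GGN100dCT replicate 4 and 1 without ATG-GGC11 replicate 3. It was 1 with the 8 libraries of the 2 groups fitted alone and 5 by DESeq2. Hba-a2, an alpha-globin gene, had 1.36, 1.97, 0.18 and 0.94 FPKM in ATG-GGN100dCT libraries, against 3.45, 3.84, 8.56 and 3.27 FPKM in ATG-GGC11 libraries (-2.16 ± 0.48, adjusted p = 0.0166), and did not pass without ATG-GGN100dCT replicate 4 (adjusted p up to 0.0598). Hbb-bt, a beta-globin gene, had 2.24, 2.52, 0.34 and 2.18 FPKM in ATG-GGN100dCT libraries, against 8.31, 4.46, 11.9 and 4.65 FPKM in ATG-GGC11 libraries (-2.07 ± 0.48, adjusted p = 0.021), and did not pass without ATG-GGN100dCT replicate 4 or ATG-GGC11 replicate 3 (adjusted p up to 0.0575). Replicate 3 of ATG-GGN100dCT was the lowest for both, and both families hold near-identical copies that can share reads.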

How the data were processed

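RNA was measured in 16 libraries of mouse cerebral cortex, 4 for each construct, grouped by the construct code in the titles. Total RNA was extracted with Trizol and selected by oligo(dT), per the labels' protocols; no strand-marking step is named there, so that reads of a gene and an overlapping antisense gene cannot be told apart. FastQC 0.10.1 and cutadapt 1.9.1 are named in the submitters' processing notes, beside the builds GRCm39 and mm10; neither the aligner nor the counting tool is named in the sources at hand. The authors deposited raw counts and FPKM for 55359 mouse genes and 4 construct rows. The counts were tested with edgeR 4.0.16 (R 4.3.3; filterByExpr, TMM, robust quasi-likelihood test over all 16 libraries with the group as the only term); the deposited FPKM serve for levels, with mean ± SD over 4 libraries. Fold changes are ATG-GGN100dCT over the other group on the log2 scale, with standard errors, and p-values are Benjamini-Hochberg adjusted over the 17737 genes tested. Depth was 12838756 to 19131210 counts. Data were simulated for ATG-GGN100dCT against ATG-GGC11, on 17509 genes, with 50 genes changed at each fold. The changed genes were drawn only from those above a minimum expected count. Of these, 74% of genes changed 1.5-fold and 86% of genes changed 2-fold were recovered. Recovery of genes with fewer reads, among them several named here at low FPKM, was not examined.

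The 52 lists (1150 genes) and the genes named were chosen with earlier results of these data known. Named genes are the 15 with the largest change in each direction that passed, were not set apart, did not overlap and averaged 1 FPKM or more in the higher group; for each list described, up to 5 members that passed, with its defining markers; and the 10 genes set apart with the most counts. A few genes that this rule names are not reported here. Alternatives were median-ratio size factors, library totals, other filters, DESeq2 1.42.0, limma 3.58.1 on log2(FPKM + 0.5) and log2(FPKM + 0.1), the 8 libraries alone, a replicate block, a 1.5-fold minimum, the genes set apart left out, and each library left out in turn.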

Additional observations from a re-analysis of the deposited data

Results flagged for a closer look

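For 20 of 242 groups of 4 libraries, over 120 genes, 1 library lay far from the other 3 by Dixon's criterion; chance gives about 1 in 20. In ATG-GGN100dCT, replicate 3 was the far library for Nptx2 (102.48 FPKM, the highest) and Sst (236.97 FPKM, the highest), and for Ina (58.0 FPKM), Irgm1 (1.61 FPKM) and Hbb-bt (0.34 FPKM), where it was the lowest. Replicate 4 was far above the others for C4b (21.01 FPKM), and replicate 2 for Slc1a3 (64.36 FPKM).

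In ATG-GGC11, replicate 3 was the highest for Csf1r (16.19 FPKM), S1pr1 (65.13 FPKM), Hba-a2 (8.56 FPKM), S100a8 (0.59 FPKM), Mat1a (0.12 FPKM), Mup3 (0.05 FPKM) and Serpina1b (0.02 FPKM), and the lowest for C1ra (0.76 FPKM). Replicate 4 was the lowest for Arc (120.24 FPKM), Aqp4 (20.89 FPKM) and Ucma (0.18 FPKM), and the highest for Gad1 (60.27 FPKM). Replicate 2 was the highest for Cyp4a14 (0.02 FPKM). For Mup3, Serpina1b and Cyp4a14 the far value rests on 1 read.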

How the results depend on the processing

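Against ATG-GGC11, the 1181 calls became 488 with a 1.5-fold minimum, 779 by limma on log2(FPKM + 0.1) and 703 with the 8 libraries alone, and 386 to 1834 without single libraries. Against TAG-GGC100, the 1542 calls became 567 with a 1.5-fold minimum, 996 and 969 by limma with 0.5 and 0.1 added, and 634 with the 8 libraries alone, and 515 to 2123 without single libraries. Against ATG-GGC100, the 363 calls became 181 with a 1.5-fold minimum, 556 with no filter, 671 by DESeq2, 234 and 210 by limma with 0.5 and 0.1 added, and 181 with the 8 libraries alone, and 165 to 688 without single libraries. Fewer samples enter the fits of 8 libraries, and fewer genes the limma fits; the cause of the other shifts was not tested. With the replicate number as a block the counts were 892, 1135 and 265. ATG-GGN100dCT libraries did not deviate together with those of the same number in the other groups (correlation -0.206 to 0.0637). No pairing by number was thus seen, but a correlation over all genes cannot exclude one. No named gene that was called against ATG-GGC11 changed direction under the alternatives run for that comparison. The direction of named genes under the alternatives was not checked for the other comparisons. Depth and spread limit small changes: 74% of simulated 1.5-fold changes against ATG-GGC11 were recovered, on 17509 genes. These changes were placed only in genes above a minimum expected count. Recovery by level was not examined.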
